A study of Mus musculus with 46 samples.

Results

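The genes described here are 33 factors that build ribosomes in the nucleolus, followed across the livers of virgin and pregnant mice under a sunscreen with or without zinc oxide particles. They were taken by exact gene symbol from a list of nucleolar factors, and where a gene had several array rows the row with the highest mean over all arrays stood for it. A row of their own was found for 31 of the 33 genes, among 19938 genes with such a row. Noc2l matched no row, and Ppan was met only in a row that names several genes, so neither was measured here.

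Liver RNA of 46 SKH:QS mice was measured on Affymetrix arrays of the whole-transcript kind, each mouse on its own array, in 2 separate experiments with 4 arms each. The arms were untreated, a sunscreen base without particles (the formulation arm), the same kind of sunscreen with 68ZnO microparticles (micro ZnO) and one with 68ZnO nanoparticles (nano ZnO). Sunscreen was applied to the skin on 6 occasions within 4 days, and livers were taken on day 5. Each virgin group held 6 mice. At about 17 days of gestation, the pregnant groups had 6 mice each for formulation and nano ZnO and 5 each for untreated and micro ZnO. All groups shared the strain, single housing, collars against licking and killing under an injected anaesthetic, and the age of the mice is not given in the sources used here. The labels call the arrays of a group biological replicates.

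Ribosome production starts when RNA polymerase I copies ribosomal DNA into a long precursor RNA. Small nucleolar ribonucleoprotein particles guide chemical modification of that RNA, and large processing complexes cut, fold and package it into the precursors of the small and large subunits. In liver this programme is known for its tie to protein synthesis and growth, and MYC-type transcription factors, which recognise the E-box, are textbook regulators of many of its genes.

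The E-box CACGTG was looked up in the promoter windows of RefSeq (build GRCm38.p6), which run from 250 bases before to 50 bases after each annotated start. The motif reads the same on both strands, and it was the sole motif searched. Of the 31 measured genes 26 had a window, and 7 of these (26.9%) held the motif, against 8.09% of the 27025 genes with a window and 7.15% of all 32851 windows. The stretches of 30 bases that carry it are shown for all 7 genes, 5′ to 3′ on the strand of the gene, with the motif in capitals.
Mybbp1a: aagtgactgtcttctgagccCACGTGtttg
Nop2: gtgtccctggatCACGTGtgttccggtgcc
Ltv1: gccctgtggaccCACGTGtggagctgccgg
Tsr1: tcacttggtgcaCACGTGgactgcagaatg
Utp20: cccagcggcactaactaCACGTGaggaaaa
Wdr43: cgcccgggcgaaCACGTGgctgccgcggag
Pes1: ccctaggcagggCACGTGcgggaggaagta

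In Pes1 (chr11:3963965-3963994, plus strand) the motif began 2 bases after the start, and in Tsr1 (chr11:74898092-74898121, plus strand) 24 bases after it. It also lay after the start in Wdr43 (chr17:71616220-71616249, plus strand), Mybbp1a (chr11:72441347-72441376, plus strand), Ltv1 (chr10:13193092-13193121, minus strand) and Utp20 (chr10:88826765-88826794, minus strand). In Nop2 (chr6:125131811-125131840, plus strand) it began 60 bases before the start. A match describes the letters of the window and not a bound site. The 7 genes did not all move together: Pes1 and Tsr1 are among the genes described next as lower in virgin formulation livers, and the other 5 with the motif were not called there. Of the 19 genes whose window lacked the motif, 5 were called lower.

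The values are log2 intensities, so a difference of 1 is a doubling, and ± gives the SE of fitted differences unless SD is named. A gene was called when its limma p, adjusted by the Benjamini-Hochberg method over 23410 rows, was under 0.05. Overlap between groups, and arrays beyond the range of another group, were read for the ribosome genes alone. No share over all rows was taken, so they are given as a description. The hepatocyte markers measured, 8 in number and with Alb at their top, had means at the 97.4th to 100th percentile of all rows, which bears out the labelled tissue. Array medians lay at 4.66 to 4.90 in the virgin and at 3.98 to 4.12 in the pregnant experiment, so levels were compared within an experiment unless arrays were first rescaled. In a principal component analysis of the pregnant arrays, micro ZnO replicates 3 and 4 stood apart, at -47.1 and -31.2 on a first component that held 21.8% of the variance, where the others lay between -12.5 and 19.5. The ribosome genes had means at the 41.5th to 88.0th percentile (median 74.7), with Noc3l at 41.5 and Rrp1b at 47.9. Without detection calls, the lowest of them are not shown to lie above background.

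In virgin mice the formulation arm had lower levels of 8 ribosome biogenesis genes than the untreated arm and higher levels of none. The genes were Npm1, Ncl, Dkc1, Tsr1, Noc4l, Nop14, Pes1 and Wdr12, and they fell by 0.22 to 0.43 on the log2 scale, which is 1.16-fold to 1.35-fold. They come from 4 of the 5 steps of the pathway, with no call among the 3 genes of RNA polymerase I transcription. The 8 genes make 25.8% of the 31, where 26.5% of all rows were called in either direction and 15.0% were called lower. In a separate fit and adjustment of the 14046 brighter rows, which include all 31 genes, 26.8% were called lower. The same 8 genes were called there, a share close to that of the brighter rows. The median difference of the 31 genes was -0.11, against 0.03 over all rows and -0.05 over the brighter ones, and 23 of the 31 differences were below 0. At an unadjusted p under 0.05 the share was 11 of 31 genes, all lower, against 39.7% of all rows.

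**Figure D1:**
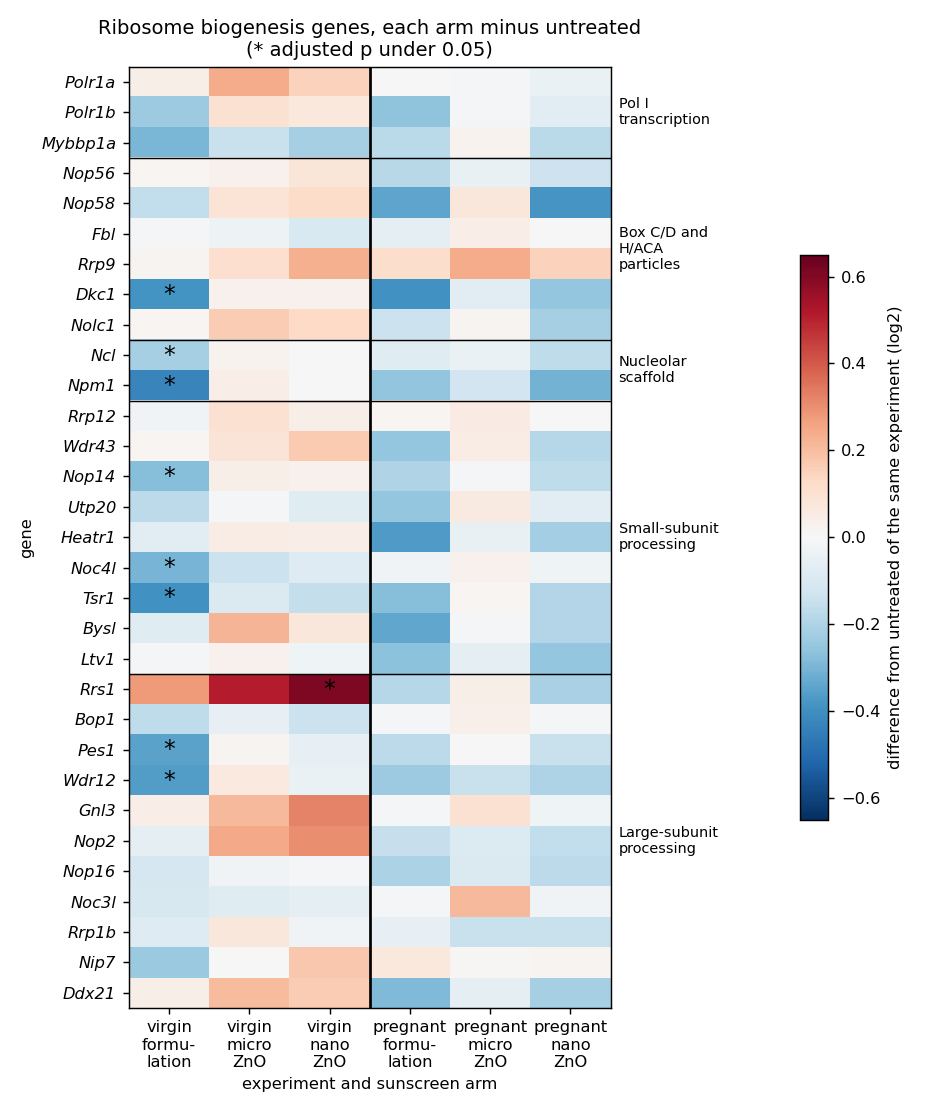
Difference of each sunscreen arm from the untreated arm of the same experiment (log2, colour scale from blue for lower to red for higher) for the 31 measured genes, in rows grouped by their step in ribosome production, with 3 virgin and 3 pregnant columns. Asterisks mark adjusted p under 0.05: there are 8 in the virgin formulation column, all on lower values, and 1 in the virgin nano ZnO column, on Rrs1.

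Both nucleolar scaffold genes fell. Npm1, the histone chaperone nucleophosmin, had a lowest, median and highest value of 7.23, 7.37 and 7.55 in untreated livers and of 6.60, 6.91 and 7.49 in formulation livers. It fell by 0.43 ± 0.15 (adjusted p = 0.0315), and 5 of 6 formulation arrays lay below every untreated one. Ncl, the nucleolar RNA-binding protein nucleolin, ran over 7.59, 7.68 and 7.91 in untreated and over 7.37, 7.43 and 7.83 in formulation livers. It fell by 0.22 ± 0.08 (adjusted p = 0.0481), again with 5 of 6 formulation arrays below all untreated ones. In both genes the same single formulation array, replicate 3, reached into the untreated range.

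Among the genes of the modification particles Dkc1 alone was called. Dkc1 encodes dyskerin, the pseudouridine synthase of the H/ACA particles. Its lowest, median and highest values were 6.00, 6.12 and 6.43 in untreated livers and 5.45, 5.77 and 6.05 in formulation livers. The fall was 0.39 ± 0.09 (adjusted p = 0.00297), and 1 formulation array lay within the untreated range. The core proteins of the box C/D particles, which guide methylation of ribosomal RNA, showed no such difference. Fbl, the methyltransferase fibrillarin, differed by -0.01 ± 0.08 and Nop56 by 0.02 ± 0.13, and Nop58 differed by -0.16 ± 0.19, a gene whose arrays spread more widely. Fbl has a second row on the array, with means of 6.67 ± 0.17 in untreated and 6.74 ± 0.18 in formulation livers (SD, n = 6). Under nano ZnO that row was above untreated, at 6.82, and the row used was below it, at 6.71 against 6.81.

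Of the 9 genes for small-subunit processing, Tsr1, Noc4l and Nop14 fell. Tsr1, a GTPase-like factor of late small-subunit maturation, ran over 6.57, 6.81 and 7.15 (lowest, median, highest) in untreated and over 6.27, 6.43 and 6.71 in formulation livers. It fell by 0.39 ± 0.11 (adjusted p = 0.0108), with 5 of 6 formulation arrays under the untreated range. Noc4l and Nop14 encode partners in the nucleolar precursor of the small subunit. Noc4l ran over 6.34, 6.47 and 6.63 in untreated and over 6.13, 6.19 and 6.28 in formulation livers, and these groups did not overlap. Its fall of 0.30 ± 0.06 had the smallest adjusted p of the 31 genes (0.000822). Nop14 ran over 6.38, 6.57 and 6.89 and over 6.13, 6.31 and 6.56 in the same order and fell by 0.28 ± 0.08 (adjusted p = 0.0162). The Nop14 groups overlapped, with 3 of 6 formulation arrays below all untreated ones. The other 6 genes of this step, among them the scaffold proteins Heatr1 and Utp20, were not called.

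For the large subunit the calls fell in the complex of Pes1, Bop1 and Wdr12, which is needed to mature the large-subunit ribosomal RNAs. Pes1 ran over 7.07, 7.25 and 7.52 in untreated and over 6.78, 6.91 and 7.06 in formulation livers, with no overlap, and fell by 0.35 ± 0.07 (adjusted p = 0.00146). Wdr12 ran over 5.81, 6.14 and 6.48 and over 5.53, 5.77 and 6.08 and fell by 0.36 ± 0.11 (adjusted p = 0.0192), with 3 of 6 formulation arrays below all untreated ones. Bop1, the third partner, differed by -0.17 ± 0.08 and was not called (adjusted p = 0.116). Wdr12 has a second row on the array. With both rows averaged its difference was -0.28 and no longer called (adjusted p = 0.0837).

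The 3 genes of RNA polymerase I transcription gave no call. Polr1a and Polr1b encode the largest subunits of the enzyme, and Mybbp1a a nucleolar regulator of ribosomal RNA synthesis. Their differences were 0.04 ± 0.12, -0.24 ± 0.12 and -0.30 ± 0.12, with adjusted p of 0.837, 0.141 and 0.0753. In Polr1b and Mybbp1a 3 of 6 formulation arrays each lay below all untreated ones.

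**Figure D2:**
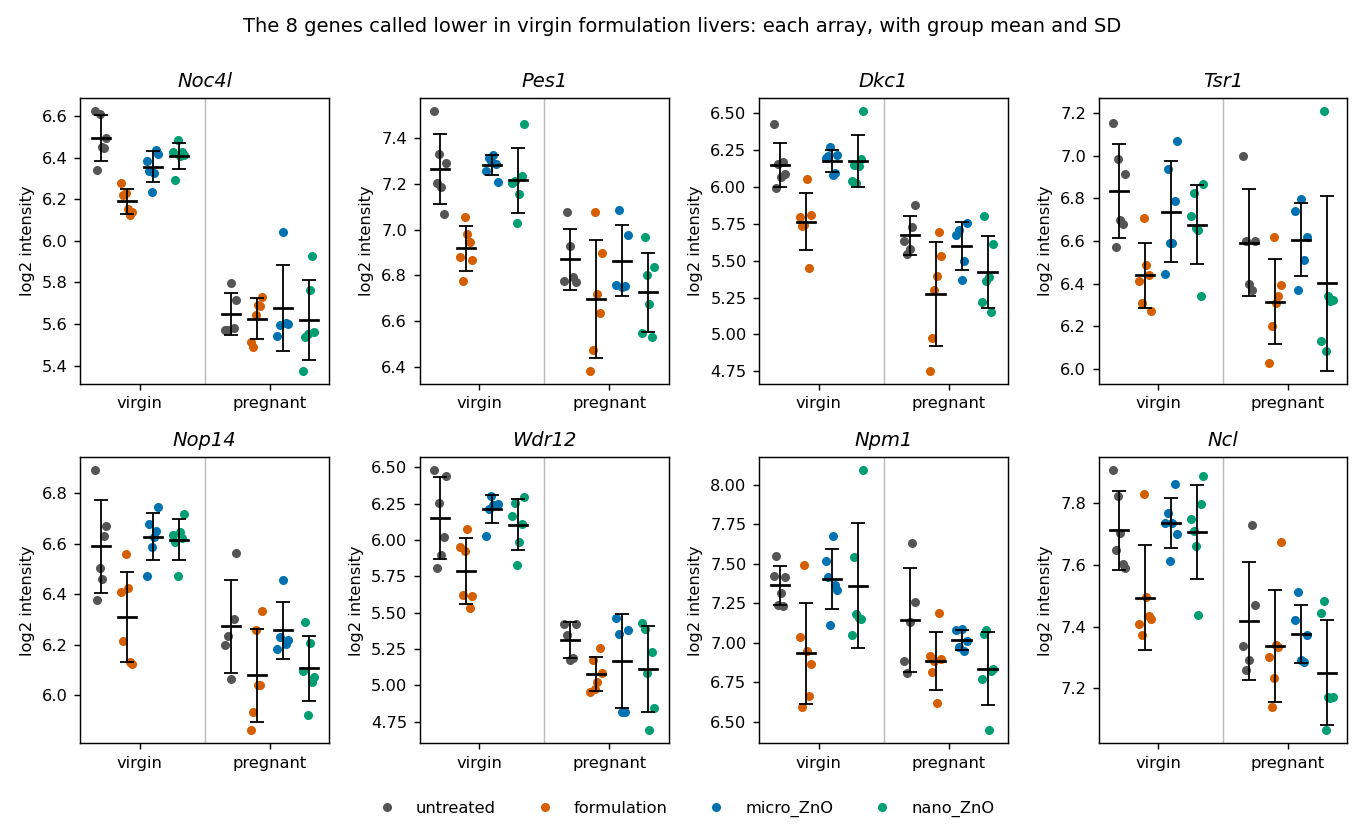
Log2 intensity of the 8 genes called lower in virgin formulation livers, 1 point per array, for 4 virgin and 4 pregnant groups, with the mean (long bar) and SD (whiskers) of each group. Among virgin groups the formulation points of Noc4l and Pes1 lie wholly under the untreated points, and among pregnant groups every sunscreen arm overlaps with untreated in all 8 genes.

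The shape of the whole array moved with the same groups. The interquartile range of an array, the width of the middle of its distribution, was 2.97 ± 0.07 (SD, n = 6) in untreated and 2.83 ± 0.05 (SD, n = 6) in formulation livers. Single arrays ran from 2.90 to 3.09 in untreated and from 2.76 to 2.89 in formulation livers, so the groups did not overlap. Within groups, a gene's deviation from its group mean and that of the interquartile range had a median correlation of 0.45 over the 31 genes (range 0.12 to 0.81, 24 virgin arrays, both taken from the same arrays). With the interquartile range as a covariate none of the 31 genes was called in this comparison, where 0.765% of all rows were, and the median difference of the 31 genes was 0.12. Ncl then differed by 0.02 ± 0.09 and Wdr12 by 0.05 ± 0.11, above 0, while Noc4l stood at -0.22 ± 0.08 (adjusted p = 0.200). Without overlap between the groups, that fit cannot tell the interquartile range from the arm. A further quantile normalization, which forces all virgin arrays onto one distribution, left Ncl at -0.09 ± 0.07 and Npm1 at -0.32 ± 0.14, neither called. The other 6 were called, with Nip7 added, 7 in all. It also brought the share of higher rows among all called rows from 43.4% to 36.2%.

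Clock genes, which oscillate over the day, moved with the arms as well. A score of 14 clock genes had a mean of -1.03 in virgin untreated and -0.15 in virgin formulation livers, against 0.53 under micro ZnO and 0.64 under nano ZnO. With the score as a covariate 7.14% of all rows and 2 of the 31 genes were called, Pes1 at -0.37 ± 0.09 (adjusted p = 0.0188) and Noc4l at -0.24 ± 0.07 (adjusted p = 0.0384), and the share of higher rows among called rows was 29.9%. Of the 6 genes no longer called, Npm1 differed by -0.55, Dkc1 by -0.32, Tsr1 by -0.29 and Ncl by -0.23, with Wdr12 at -0.20 and Nop14 at -0.17. Leaving out 1 array at a time gave 4 to 9 called genes, with 4 without untreated replicate 1 and 5 without formulation replicate 5.

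**Figure D3:**
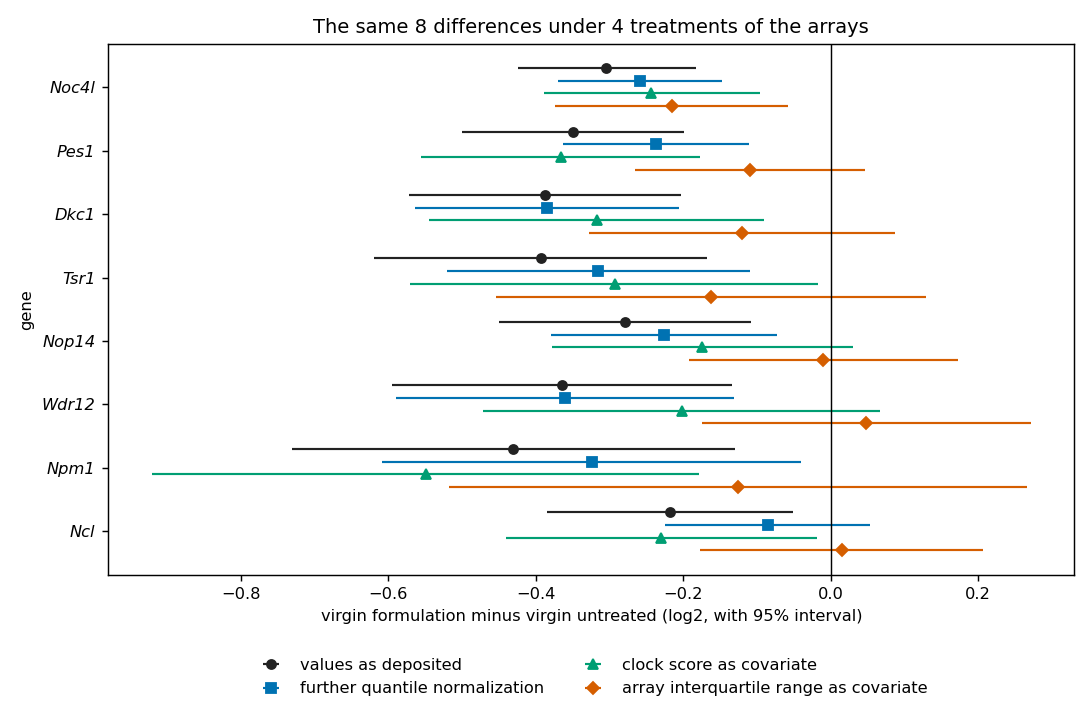
Difference between virgin formulation and virgin untreated livers (log2, with 95% interval) for the 8 called genes, fitted on the deposited values, after a further quantile normalization, with the clock score and with the array interquartile range as a covariate. Points move toward 0 with the interquartile range in all 8 genes, and with it the interval of Noc4l alone stays below 0. The interquartile range did not overlap between these groups, so that fit cannot tell it from the arm.

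Markers of some other liver cells differed between the same arms. Summed intensities of 10 neutrophil markers ran from 192 to 215 in virgin untreated and from 227 to 455 in formulation livers. Of the 10 markers 6 were higher and none lower, where 11.5% of all rows were called higher. Summed intensities of 10 endothelial markers ran from 1291 to 1600 in untreated and from 863 to 1265 in formulation livers. Of these 6 of 10 were lower, where 15.0% of all rows were called lower. Endothelial sums ran from 1002 to 1235 under micro ZnO and from 905 to 1314 under nano ZnO. Sums of other types overlapped between virgin untreated and formulation livers. In that order, Kupffer cell and macrophage sums ran from 1362 to 2051 and 1202 to 2019, and cholangiocyte sums from 148 to 171 and 160 to 183. Stellate sums ran from 782 to 889 and 716 to 849, T and B cell sums from 176 to 199 and 195 to 229. Erythroid sums ran from 202 to 300 and 165 to 204. Array intensities have no true 0, so absent markers cannot be named. The part of these cells in the gene results was not tested, and in bulk liver fewer cells of a type and less RNA per cell cannot be told apart.

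Other genes of the pathway, taken from lists that share no gene with the 33, were also mostly lower where they were called in virgin formulation livers. In the processome that forms the small subunit 14 of 39 measured genes fell and none rose, with a median of -0.21, led by Nol11 at -0.63 ± 0.10 (adjusted p = 0.000171), Ddx52 at -0.49 ± 0.09 and Utp11 at -0.43 ± 0.11. In large-subunit assembly 13 of 42 fell and none rose, with a median of -0.15, including the helicase Ddx56 at -0.42 ± 0.07 and Nol7 at -0.43 ± 0.10. The nuclear exosome, which trims the ends of ribosomal RNA, had 3 of 13 lower, among them its nuclease Dis3 at -0.44 ± 0.11. Of 13 further genes of RNA polymerase I, 3 fell, namely Taf1b at -0.41 ± 0.10, Polr1h at -0.35 ± 0.07 and Taf1a at -0.31 ± 0.11. Of 12 further particle factors 3 fell, including Nop10 at -0.37 ± 0.08 and Nhp2 at -0.31 ± 0.09, which bind dyskerin, and the nucleolar phosphoprotein gene Tcof1 rose by 0.22 ± 0.08. Of 54 ribosomal protein genes 11 fell and none rose, led by Rpl6 and Rpl10a at -0.32 each. These shares come from the fit of all rows, where 15.0% were called lower. In the separate fit of the brighter rows 26.8% were called lower.

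Particle sunscreens were set against untreated in virgin mice next. Under micro ZnO none of the 31 genes was called, where 4.43% of all rows were, and 4 had an unadjusted limma p under 0.05 (3 higher and 1 lower), against 21.3% of all rows. Of all rows 1.63% were called higher. The median difference was 0.04, and 1 gene was called when untreated replicate 6 was left out. The smallest p belonged to Rrs1, which helps the 5S ribonucleoprotein join the large subunit. Rrs1 differed by 0.51 ± 0.19 (adjusted p = 0.109), Noc4l by -0.14 ± 0.06 (adjusted p = 0.171) and the ribosomal RNA methyltransferase gene Nop2 by 0.24 ± 0.11 (adjusted p = 0.184).

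Under nano ZnO Rrs1 was called higher, and it was the sole call among the 31 genes (3.23%), where 11.9% of all rows were called and 4.77% were higher. At an unadjusted limma p under 0.05 there were 4 genes, all higher, against 28.3% of all rows. Rrs1 ran over 5.39, 5.93 and 6.61 (lowest, median, highest) in untreated and over 6.21, 6.55 and 7.09 in nano ZnO livers. It rose by 0.61 ± 0.19 (1.53-fold, adjusted p = 0.0322), and 3 of 6 nano ZnO arrays lay above all untreated ones. Nop2 followed with 0.30 ± 0.11 (adjusted p = 0.0638), 4 of 6 arrays above the untreated range. The call depended on single arrays: no gene was called without nano ZnO replicate 1 or 3 or without untreated replicate 2, 4 or 5, and 2 genes were called without untreated replicate 1 or 6. With the clock score as a covariate Rrs1 differed by 1.02, more than without it, at an adjusted p of 0.293, and no gene was called, where 0.030% of all rows were. The score ran from -1.27 to -0.69 in untreated and from 0.47 to 0.81 in nano ZnO livers. Without overlap between the groups, that fit cannot tell the score from the arm. Ncl and Npm1 differed from untreated by -0.01 ± 0.08 and -0.002 ± 0.15.

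Among the other pathway genes, ribosomal protein genes had the most calls under nano ZnO. In this arm 18 of 54 ribosomal protein genes fell and 1 rose, with a median of -0.16, led by Rps29 at -0.34 ± 0.06 and Rpl4 at -0.31 ± 0.06. In the same fit 7.18% of all rows were called lower, and in the separate fit of the brighter rows 13.8% were. In the small-subunit processome 3 of 39 fell, with Utp6 at -0.38 ± 0.10, and in large-subunit assembly 1 of 42, the helicase gene Ddx56 at -0.29 ± 0.07. Under micro ZnO 5 of 54 ribosomal protein genes fell and none rose, against 2.80% of all rows called lower.

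Particle sunscreens were also set against the formulation without particles, a comparison that uses the same formulation arrays as the one with untreated and is therefore no independent result. Against formulation, 5 of the 31 genes were higher under micro ZnO (16.1%), where 6.83% of all rows were called, 5.14% higher. In the separate fit of the brighter rows 7 of the 31 genes were higher, beside 10.9% of those rows. The 5 genes called over all rows were Npm1 at 0.47 ± 0.15 (adjusted p = 0.0498), Wdr12 at 0.43 ± 0.11, Dkc1 at 0.41 ± 0.09 (adjusted p = 0.00690), Pes1 at 0.37 ± 0.07 (adjusted p = 0.00438) and Nop14 at 0.32 ± 0.08, the last and Wdr12 both at an adjusted p of 0.0218. With both its rows averaged Wdr12 differed by 0.38 and was not called (adjusted p = 0.0583). Npm1 was not called after further quantile normalization (0.41, adjusted p = 0.0820) or with the clock score (0.38, adjusted p = 0.168). Groups did not overlap in Dkc1 and Pes1, where micro ZnO livers ran from 6.08 to 6.27 and from 7.21 to 7.33. The median of the 31 differences was 0.17, and 30 were above 0. At an unadjusted limma p under 0.05 there were 11 genes, against 22.4% of all rows. Without formulation replicate 3 the count was 8, without formulation replicate 2, 5 or 6 it was 2 each time, without micro ZnO replicate 6 it was 3. It was 0 once the interquartile range was in the fit, where 0.914% of all rows were called and the 5 genes differed by 0.16 to 0.29.

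Under nano ZnO 5 genes were again higher than under formulation (16.1%), where 3.25% of all rows were called, 2.52% higher. In the separate fit of the brighter rows 6 genes were higher, beside 5.77% of those rows. The 5 genes called over all rows were Dkc1 at 0.41 ± 0.09 (adjusted p = 0.0120), Nip7 at 0.41 ± 0.11 (adjusted p = 0.0370), Nop14 at 0.31 ± 0.08 (adjusted p = 0.0403), Pes1 at 0.30 ± 0.07 (adjusted p = 0.0239) and Noc4l at 0.22 ± 0.06 (adjusted p = 0.0393). With the clock score as a covariate Pes1 stood at 0.28 and was not called (adjusted p = 0.0830). Nip7, a factor of large-subunit maturation, ran over 4.89, 5.14 and 5.48 in formulation and over 5.23, 5.62 and 5.71 in nano ZnO livers. Among these 5 genes only Noc4l had groups that did not overlap, with nano ZnO arrays from 6.29 to 6.48 above formulation arrays of at most 6.28. How often groups did not overlap was not counted over all rows. Leaving out any 1 of the 12 arrays moved the count by over 1.5 times, to 8 without formulation replicate 3 and otherwise to between 1 and 3. Once the interquartile range was in the fit no gene was called, where 0.666% of all rows were. Nip7 then differed by 0.36, Dkc1 by 0.28 and the other 3 by 0.17 to 0.18. At an unadjusted limma p under 0.05 there were 12 genes, against 17.6% of all rows.

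Between the particle sizes no difference was called in virgin mice. Nano ZnO minus micro ZnO gave 0 called genes of 31 and 0 with an unadjusted limma p under 0.05, where 0% of all rows were called and 4.72% had an unadjusted p under 0.05. Single differences ran from -0.15 to 0.18, and the 95% intervals of single genes reached at most from -0.50 to 0.48. The smallest p belonged to Nip7, at 0.18 ± 0.11 (adjusted p = 0.993), Rrp9, at 0.12 ± 0.10, and Bop1, at -0.08 ± 0.08.

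Over the virgin groups the formulation arm had the lowest mean of the 4 for 21 of the 31 genes, untreated for 8 and nano ZnO for 2. The widest spread of group means was that of Rrs1, at 0.61, followed by Npm1 at 0.47, Wdr12 at 0.43 and Nip7 and Dkc1 at 0.41, and the narrowest were those of Ltv1, at 0.06, and Nop56, at 0.08. The median spread was 0.24, beside a median SD within groups of 0.21, and in 17 of the 31 genes the range of group means was wider than the gene's own SD within groups. In the pregnant experiment, without calls between arms, that held for 14 of 31 genes. Neither this count nor that of lowest means was taken over all rows, so both are given as a description. The genes varied together within groups: the 465 pairs had a median correlation of 0.45 over 24 virgin arrays, and 98.1% of pairs were above 0, while the genes' median correlation with other genes was -0.03. In the 22 pregnant arrays the median was 0.34, with 86.2% of pairs above 0. All points of such a correlation share their arrays, and it is given as a description.

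In pregnant mice no ribosome biogenesis gene was called in any comparison of arms. For formulation against untreated the limma fit called 0.0598% of all rows and 0 of the 31 genes, and 4 genes, all lower, had an unadjusted p under 0.05, against 12.3% of all rows. The median difference was -0.18, against 0.004 over all rows, and 27 of 31 differences were below 0. The smallest p was that of Dkc1, whose untreated arrays read 5.63, 5.55, 5.58, 5.73 and 5.88 and whose formulation arrays ran over 4.75, 5.35 and 5.70 (lowest, median, highest). It differed by -0.40 ± 0.14 (adjusted p = 0.311), and 5 of 6 formulation arrays lay below all untreated ones. Heatr1 differed by -0.37 ± 0.15 and the large-subunit factor gene Nop16 by -0.20 ± 0.08, with adjusted p of 0.350 and 0.351.

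For micro ZnO against untreated in pregnancy 0.107% of all rows and none of the 31 genes were called, with 1 gene at an unadjusted limma p under 0.05 (9.08% of all rows) and a median difference of -0.005. That gene was Rrp9, which binds the U3 small nucleolar RNA. Its untreated arrays read 5.16, 5.18, 5.16, 4.98 and 4.74 and its micro ZnO arrays 5.35, 5.07, 5.45, 5.34 and 5.23, so 4 of 5 micro ZnO arrays lay above all untreated ones. The difference was 0.24 ± 0.09 (adjusted p = 0.383). Noc3l at 0.21 ± 0.14 and Rrp1b at -0.14 ± 0.13 followed. Without micro ZnO replicates 3 and 4 no gene had an unadjusted limma p under 0.05 or was called, Rrp9 differed by 0.17 ± 0.10 and the median difference was 0.04.

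For nano ZnO against untreated in pregnancy 0.0214% of all rows and none of the 31 genes were called, with 1 gene at an unadjusted limma p under 0.05 (10.2% of all rows). The median difference was -0.17, against 0.01 over all rows, and 28 of 31 differences were below 0. Npm1 came first at -0.31 ± 0.13 (adjusted p = 0.443). Its untreated arrays read 6.88, 6.81, 7.13, 7.63 and 7.26, and its nano ZnO arrays ran over 6.45, 6.83 and 7.08, with 2 of 6 below all untreated ones. Nop16 differed by -0.17 ± 0.08 (adjusted p = 0.491) and Nop58 by -0.38 ± 0.21 (adjusted p = 0.518). Comparisons with untreated share the same 5 untreated arrays.

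Direct comparisons between the pregnant sunscreen arms called 0% of all rows and 0 of the 31 genes. Micro ZnO minus formulation had 5 genes at an unadjusted limma p under 0.05, all higher, and 7.00% of all rows, led by Utp20 at 0.31 ± 0.12, Dkc1 at 0.32 ± 0.14 and Bysl, a small-subunit factor gene, at 0.33 ± 0.14. Nano ZnO minus formulation had 0 genes and 3.07% of all rows at that level, with Utp20 at 0.18 ± 0.12, Polr1b at 0.18 ± 0.13 and Bysl at 0.15 ± 0.14 first. Nano ZnO minus micro ZnO had 1 gene, Nop58 at -0.46 ± 0.21, and 4.64% of all rows, followed by Noc3l at -0.23 ± 0.13 and Wdr43 at -0.23 ± 0.14. Without micro ZnO replicates 3 and 4 these micro ZnO comparisons had 6 and 2 genes at that level and 0 called, with medians of 0.20 against formulation and -0.17 for nano ZnO minus micro ZnO, in place of 0.16 and -0.13. The lists of other pathway genes held no call in the comparisons of pregnant sunscreen arms with untreated. Neutrophil marker sums ran from 209 to 342 in pregnant untreated livers and from 461 to 1325 under micro ZnO, and their part in these values was not tested.

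The responses of pregnant and virgin mice were set against each other in one fit of all 8 groups. None of the 31 genes was called for formulation (0.145% of all rows), micro ZnO (0.0470%) or nano ZnO (0.0427%), with 1, 1 and 2 genes at an unadjusted limma p under 0.05, against 10.2%, 7.43% and 6.26% of all rows. Lower levels in virgin formulation livers and the lack of calls in pregnant ones are therefore not shown to differ. For formulation the smallest p was in Noc4l, which differed from untreated by -0.30 in virgin and -0.02 in pregnant mice, a difference of 0.28 ± 0.11 between responses (adjusted p = 0.344), ahead of Nip7 at 0.31 ± 0.18 and the helicase gene Ddx21 at -0.33 ± 0.20. For micro ZnO Nop2 came first at -0.33 ± 0.16 (adjusted p = 0.666). For nano ZnO Nop2 stood at -0.46 ± 0.16 (adjusted p = 0.557) and Rrs1 at -0.82 ± 0.31 (adjusted p = 0.681), the latter with a 95% interval from -1.45 to -0.19. Pregnant Rrs1 was 5.61 ± 0.42 (SD, n = 5) untreated and 5.40 ± 0.40 (SD, n = 6) under nano ZnO.

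Untreated livers of pregnant mice were compared with those of virgin mice after all 46 arrays were put on one distribution by quantile normalization. Experiment and pregnancy cannot be told apart here, because each experiment held one state. Of the 31 genes 3 were higher and 3 lower (19.4%), where 31.8% of all rows were called, 14.0% higher and 17.8% lower. At an unadjusted limma p under 0.05 there were 12 genes, against 41.4% of all rows. The higher genes were Nop58, Gnl3 and Ddx21. Nop58 read 6.61, 6.42, 5.64, 6.15 and 6.59 in pregnant livers and ran over 5.36, 5.69 and 6.13 in virgin ones, a difference of 0.59 ± 0.21 (adjusted p = 0.0275). Gnl3, or nucleostemin, a nucleolar GTPase, read 6.61, 6.48, 6.14, 6.16 and 6.85 against 5.64, 5.98 and 6.25, higher by 0.49 ± 0.17 (adjusted p = 0.0263). In both genes the groups overlapped through 1 or more pregnant arrays. Ddx21, a helicase of ribosomal RNA transcription and processing, read 7.12, 7.05, 6.75, 6.70 and 7.21 against 6.15, 6.47 and 6.88 and was higher by 0.49 ± 0.14 (adjusted p = 0.00478).

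The lower genes of the untreated comparison were Noc4l, Nop16 and Rrp9. Noc4l read 5.85, 5.86, 6.06, 5.86 and 5.96 in pregnant livers, all below the virgin range of 6.10 to 6.33, and differed by -0.31 ± 0.08 (adjusted p = 0.00160). Nop16 read 7.23, 7.21, 7.18, 7.17 and 7.35, all of them also below the virgin range of 7.36 to 7.64, with a difference of -0.29 ± 0.08 (adjusted p = 0.00317). Rrp9 differed by -0.26 ± 0.09 (adjusted p = 0.0277) and its groups overlapped. Without pregnant untreated replicate 5 the count of called genes was 3 in place of 6.

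The signs of many genes in the untreated comparison depended on the scaling. On the values as deposited 21 of the 31 genes were lower and 0 higher, where 91.4% of all rows were called. The median over all rows then stood at -0.61, and 0.9% of called rows were higher, against 43.9% after joint quantile normalization. With each array's median taken off, 14 genes were higher and 0 lower, where 39.5% of all rows were called. The median over all rows was then 0.09, and 69.2% of called rows were higher. None of the 6 genes was called under all 3 scalings. On the deposited values Nop58, Gnl3 and Ddx21 stood at 0.07, -0.01 and 0.01 and were not called, and with array medians taken off Noc4l, Nop16 and Rrp9 stood at -0.15, -0.06 and -0.16 and were not called. Relative to the median of all rows Nop58, Gnl3 and Ddx21 stood at 0.61, 0.51 and 0.51 after joint quantile normalization and at 0.68, 0.60 and 0.62 on the deposited values. Noc4l, Nop16 and Rrp9 stood at -0.29, -0.27 and -0.24 and at -0.24, -0.15 and -0.25. Taking off array medians moves all genes by one amount, so it gives the same relative values as the deposited ones. With the interquartile range as a covariate 7 genes were called, all lower, where 22.9% of all rows were called. Noc4l and Nop16 were the sole calls shared with the 6. Nop58 was then at -0.01, Gnl3 at 0.18 (adjusted p = 0.648) and Ddx21 at 0.17 (adjusted p = 0.543). The covariate was the range of the deposited arrays, while the fitted values had been put on one distribution. It ran from 2.90 to 3.09 in virgin and from 3.14 to 3.22 in pregnant untreated arrays. Without overlap between the groups, that fit cannot tell the covariate from the experiment.

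**Figure D4:**
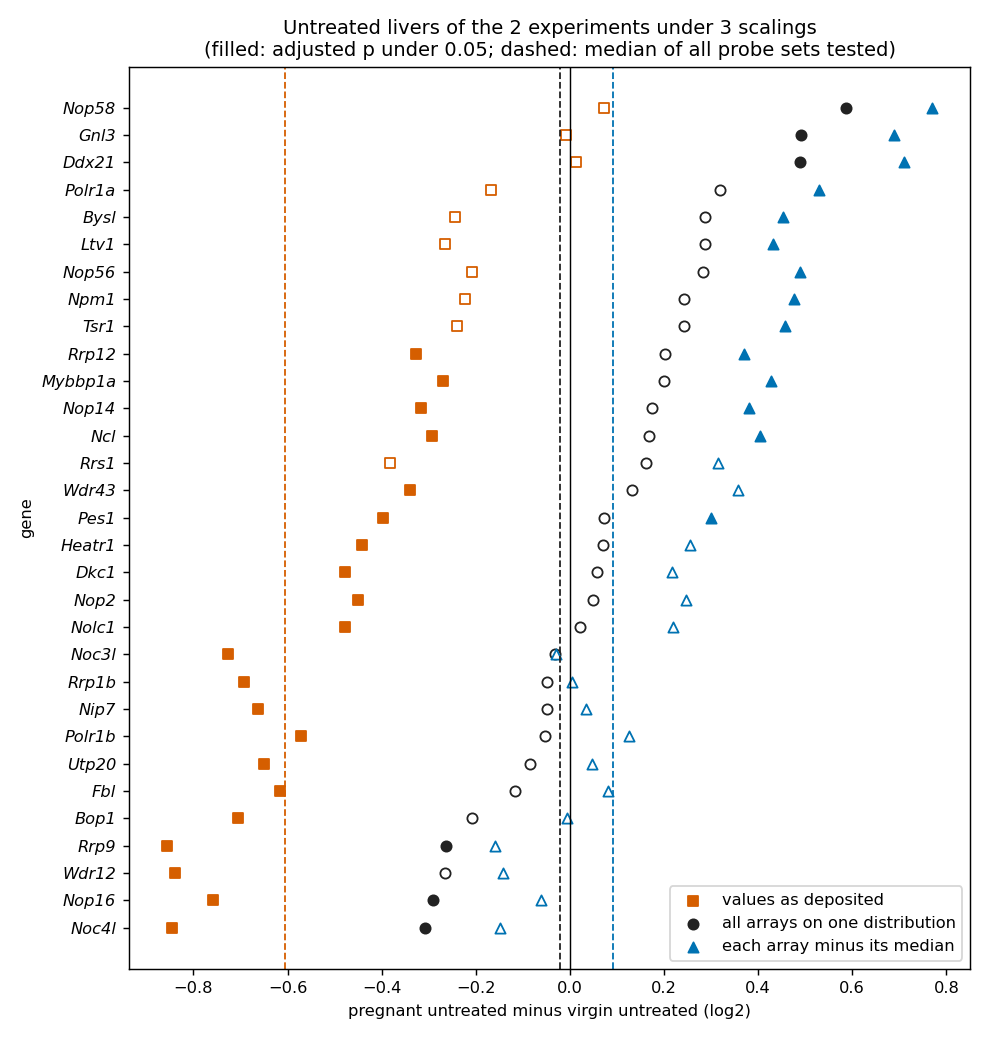
Pregnant untreated minus virgin untreated livers (log2) for the 31 genes, ordered by the value after joint quantile normalization, under 3 scalings of the arrays; filled symbols have an adjusted p under 0.05 and dashed lines give the median of all rows tested. Squares (deposited values) lie mostly below 0 and triangles (array median taken off) mostly above it, while the order of the genes stays alike.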

How the data were processed

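The values were deposited on a log2 scale after RMA, named without a version in the submitters' processing notes. All 46 columns were used and 0 were left out. Array medians differ between the experiments, so separate normalization is possible but not stated. The number of arrays limits the precision, and the values came without detection calls. Of 35512 rows, 21789 had 1 gene symbol, 1621 several and 12102 none, and the 23410 with a symbol were tested.

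Within each experiment the 4 arms were fitted in R 4.3.3 with limma 3.58.1 (lmFit, eBayes), two-sided, with Benjamini-Hochberg adjustment over all rows tested and calls at adjusted p under 0.05. All 8 groups in one fit gave the differences between responses, and, after quantile normalization of the 46 arrays, that between untreated groups. The members and gene lists were chosen with earlier results of these data known. Always named were Ncl, Npm1, Fbl, Polr1a and Polr1b, then the called genes with the largest changes (up to 10 a direction against untreated, up to 6 elsewhere), or the 3 smallest p where none was called, and up to 4 called genes per list. Replicate numbers were not used as pairs in the main fits. Same-numbered arrays had a median correlation of deviations of -0.13 over 36 virgin and 0.02 over 31 pregnant pairs. Differently numbered arrays had 0.04 over 180 and -0.008 over 150 pairs. Correlations above 0.1 were found in 1 same-numbered and 61 other virgin pairs, and in 12 same-numbered and 27 other pregnant pairs. Tested on simulated data, the virgin formulation fit recovered 91 of 100 changes of 1.5-fold and 98 of 100 of 2-fold, with 8 false calls over 23410 rows. The pregnant formulation fit recovered 79 and 98 with 16 false calls, and the difference between responses 57 and 95 with 6. The simulated rows varied independently of each other, and no change below 1.5-fold was simulated. Smaller changes, such as those of the ribosome genes called in virgin formulation livers, were therefore not covered. Alternatives were fits without the dimmest 40% of rows, on all rows, with a trend and robust moderation, with array weights, on the compared groups alone, with further scaling, covariates or a replicate block, with all rows of a gene averaged, at a stricter threshold, without each array in turn and without pregnant micro ZnO replicates 3 and 4 together, which stood apart.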

Additional observations from a re-analysis of the deposited data

Results flagged for a closer look

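Arrays that stood far from the others of their group were found in 9 of 144 combinations of a named gene and a group, by Dixon's test on groups of 5 or 6 mice. Chance alone marks about 1 in 20 such groups. In virgin formulation livers replicate 3 was high for Ncl, at 7.831 where the others lay between 7.372 and 7.495, and for Rrs1, at 6.971 against 5.865 to 6.25. In virgin nano ZnO livers Dkc1 was high in replicate 6, at 6.519 against 6.025 to 6.191, and Nip7 low in replicate 5, at 5.228 against 5.593 to 5.712. In virgin micro ZnO livers Wdr12 was low in replicate 1, at 6.025 against 6.216 to 6.302. In pregnant livers Ncl was high in formulation replicate 6, at 7.674 against 7.141 to 7.339, and Tsr1 was high in nano ZnO replicate 2, at 7.21 against 6.087 to 6.344. Pregnant micro ZnO replicate 3 was high for 2 genes, Nop14 at 6.454 against 6.181 to 6.229 and Noc4l at 6.041 against 5.542 to 5.607.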

How the results depend on the processing

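Counts of called genes are given per setting. With the interquartile range as a covariate they were 0 in place of 8 for virgin formulation against untreated, 0 in place of 5 for each particle sunscreen against formulation, and 2 in place of 1 for nano ZnO against untreated. Of all rows 0.765%, 0.914% (micro ZnO), 0.666% (nano ZnO) and 4.13% were called in the same order. With this covariate Ncl (0.015) and Wdr12 (0.048) turned sign for virgin formulation, and Nop58 (-0.007) for the untreated groups. On deposited values Gnl3 (-0.009) turned. The interquartile range did not overlap between virgin formulation and virgin untreated arrays, nor between the untreated groups. Those covariate fits cannot tell it from the arm or the experiment. With the clock score, which did not overlap between nano ZnO and untreated arrays, the counts were 2 for formulation and 0 for nano ZnO against untreated. Of all rows 7.14% and 0.03% were called. At an adjusted limma p under 0.01 the counts were 3 for formulation and 0 for nano ZnO against untreated, where 2805 and 911 of 23410 rows passed. Against formulation they were 2 for micro ZnO and 0 for nano ZnO, where 403 and 156 rows passed. For the untreated groups the count was 3, where 4733 rows passed. For nano ZnO against untreated, 2 genes were called without the dimmest rows and after further quantile normalization, and 0 on all rows or with trend and robust moderation. For nano ZnO against formulation, 3 were called on all rows (2.0% of them called) and 0 on the compared groups alone (0.81% of rows). The replicate block gave 3 for micro ZnO (4.2% of rows) and 1 for nano ZnO (1.5% of rows) against formulation, and changed no other count by over 1.5 times. For the untreated groups 21 were called on deposited values and 14 with array medians taken off, in place of 6. Of all rows 91.4%, 39.5% and 31.8% were called in the same order. Leaving out 1 array gave 4 to 9 genes for virgin formulation, 0 to 1 for micro ZnO and 0 to 2 for nano ZnO against untreated, 2 to 8 and 1 to 8 for micro and nano ZnO against formulation, 3 to 9 for the untreated groups and 0 in every other comparison. No share of all rows is given beside these last counts, so they cannot be set against the array as a whole. The causes were not tested. With 5 or 6 mice a group, the median SE of 0.12 for virgin formulation limits what could be seen.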

Other observations

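Regulators upstream of the pathway moved in several directions in virgin formulation livers. Of 17 genes of the MYC network and growth control 4 rose and 4 fell against untreated, where 26.5% of all rows were called. Eif4e, which encodes the cap-binding translation factor, fell by 0.61 ± 0.14, and Rheb, an activator of mTORC1, fell by 0.35 ± 0.09, while Mxd3 and Mxd1, which encode MAX partners that oppose MYC, rose by 0.36 ± 0.10 and 0.30 ± 0.08. Myc itself differed by 0.28 ± 0.26 (adjusted p = 0.433 in limma). Of 11 p53 target genes 3 rose and 1 fell. Btg2, an antiproliferative gene, rose by 2.58 ± 0.25, Gadd45a by 1.00 ± 0.23 and Tp53inp1 by 0.81 ± 0.24, and Ccng1 fell by 0.39 ± 0.09. Under nano ZnO Btg2 rose by 1.37 ± 0.25 and was the sole p53 target called, and Mxd3 and Mxd1 rose by 0.43 ± 0.10 and 0.39 ± 0.08. Of 23 proliferation markers 3 rose and 1, Mcm3, fell by 0.39 ± 0.12 in the virgin formulation arm.

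Between the untreated groups, on joint quantile normalization, other pathway genes were called in both directions, where 14.0% of all rows were called higher and 17.8% lower. Of 54 ribosomal protein genes 15 were higher and 9 lower in the pregnant experiment, with Rps4x at 0.78 ± 0.06. Of 39 genes of the small-subunit processome 2 were higher and 6 lower, and of 42 for large-subunit assembly 7 were higher and 4 lower, with Sdad1 at 0.61 ± 0.13 and Ddx51 at -0.45 ± 0.10. The exosome had 5 of 13 higher and 3 lower, with Exosc3 at 0.66 ± 0.12. Polr1e, a subunit gene of RNA polymerase I, stood at 0.67 ± 0.11, and Nhp2 at -0.82 ± 0.09. Signs here rest on the scaling as described for the 31 genes, and experiment and pregnancy cannot be told apart.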
